A study of Mus musculus with 24 samples.

Results

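The myosin heavy chain pool was taken as 10 genes chosen by name, out of 56941 genes in the deposited tables. They were the 7 sarcomeric chains Myh3, Myh8, Myh1, Myh2, Myh4, Myh7 and Myh7b, the non-muscle chains Myh9 and Myh10, and the smooth muscle chain Myh11. The rule used names only, though earlier results of these data were known when it was written. In each library, TPM (read abundance scaled for transcript length and library size) were summed over the 10 genes, and each gene was expressed as a share of that sum. RNA came from muscle monolayers of C2C12, a mouse myoblast line that fuses into multinucleated fibers, with 24 libraries in 4 conditions of 6. All tissues, including the unstimulated controls, carried ChR2::tdTomato, a channelrhodopsin that opens in blue light, joined to a red fluorescent protein. They were grown on fibrin hydrogel and differentiated in medium with horse serum and the growth factor IGF-1. Control tissues received no light pulses, and the other conditions received 30 min of pulsed light each day at 1, 4 or 10 Hz. All tissues derived from the same cell line and were kept as wells of plates, and C2C12 muscle also twitches without light, so the control was a spontaneously active culture. The replicates were separate tissues by the study's account, and no plate or batch was given in the labels.

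Myosin II heavy chains are the motor proteins that pull on actin filaments, and in muscle they assemble into the thick filaments of the sarcomere. Developing muscle makes embryonic (Myh3) and perinatal (Myh8) chains first, and mature fibers make the slow chain Myh7 (type I) or the fast chains Myh2 (IIa), Myh1 (IIx) and Myh4 (IIb), whose ATPase rates set the speed of contraction. Non-muscle myosin II, with Myh9 (IIA) or Myh10 (IIB) heavy chains, drives adhesion, migration, shape change and division in nearly every cell, unfused myoblasts included.

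The genes of 5 members lie next to each other on mouse chromosome 11 (GRCm39, plus strand), in the order Myh3 (chr11:66969126-66993117), Myh2 (chr11:67061838-67088989), Myh1 (chr11:67089132-67116631), Myh4 (chr11:67128336-67151274) and Myh8 (chr11:67167746-67199462). Myh10 lies farther along the same chromosome (chr11:68582385-68707470). Myh7 (chr14:55208141-55232084, minus strand), Myh7b (chr2:155453096-155476234), Myh9 (chr15:77644785-77726381, minus strand) and Myh11 (chr16:14012399-14109236, minus strand) lie on other chromosomes. Their canonical transcripts hold 38 to 42 exons and encode 1935 to 1976 amino acids. The coding sequences of Myh1, Myh2, Myh4 and Myh8 are close copies, 88.1% to 91.1% identical. This bears on every value given for these chains, because a read of 50 bases from a shared stretch cannot be placed by its own sequence. Reads were paired, so a mate outside the stretch could still place the pair, and the part of pairs left ambiguous was not measured. The stretch below, read from the canonical transcripts of GENCODE M39, was identical over 60 coding bases in Myh1, Myh2, Myh4 and Myh8 (bases 1321 to 1380 of each, counted from the start codon), and is shown beside the aligned bases of Myh3, Myh7 and Myh7b, with capitals where a base differs from Myh1.
Myh1, Myh2, Myh4 and Myh8: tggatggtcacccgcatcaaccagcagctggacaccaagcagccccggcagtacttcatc
Myh3: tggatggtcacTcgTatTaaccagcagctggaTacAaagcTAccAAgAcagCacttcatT
Myh7: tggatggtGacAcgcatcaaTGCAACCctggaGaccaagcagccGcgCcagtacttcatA
Myh7b: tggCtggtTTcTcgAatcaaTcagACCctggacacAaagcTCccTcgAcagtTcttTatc
Myh3 differed from Myh1 at 12 of these 60 bases, Myh7 at 13 and Myh7b at 16. A second window (bases 148 to 207 of Myh1, Myh2, Myh4 and Myh3, and 154 to 213 of Myh8) is shown because it separates most of the fast chains, again with capitals where a base differs from Myh1.
Myh1: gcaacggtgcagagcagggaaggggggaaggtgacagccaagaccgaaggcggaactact
Myh4: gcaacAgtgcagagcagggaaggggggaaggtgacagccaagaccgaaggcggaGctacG
Myh2: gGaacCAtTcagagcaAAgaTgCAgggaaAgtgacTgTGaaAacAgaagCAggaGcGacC
Myh8: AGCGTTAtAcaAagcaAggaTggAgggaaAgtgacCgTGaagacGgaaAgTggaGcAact
Myh3: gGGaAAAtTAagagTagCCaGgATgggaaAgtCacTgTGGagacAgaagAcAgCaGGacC
In this window Myh4 differed from Myh1 at 3 bases, Myh2 at 20, Myh8 at 21 and Myh3 at 26.

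Over whole transcripts, 24.1% of the 50-base stretches of Myh2 also occurred in another myosin II gene, against 21.5% for Myh1, 21.4% for Myh8, 19.1% for Myh4 and 22.6% for Myh7, where all of them were shared with the cardiac chain Myh6. The shares were 4.81% for Myh3, 1.12% for Myh9, 0.941% for Myh10, 0.4% for Myh11 and 0 for Myh7b. The values of Myh3, Myh9 and Myh10 therefore rested almost wholly on stretches not shared with another myosin II gene, and genes outside this family were not searched. The split among Myh1, Myh2, Myh4 and Myh8 and that between Myh7 and Myh6 were set in part by the authors' counting model. Transcript length entered the shares as well. The lengths implied by the ratio of counts to TPM, relative to Myh9, were between 0.816 and 0.830 for Myh3, Myh8, Myh1, Myh2 and Myh4 (medians over 24 libraries), 0.669 for Myh7b and 0.459 for Myh7, with a range of 0.365 to 0.570 among libraries for Myh7. As a result Myh7 held a mean of 12.7% of the pool by TPM and 6.92% by counts, while Myh9 held 29.7% by TPM and 35.5% by counts.

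**Figure D1:**
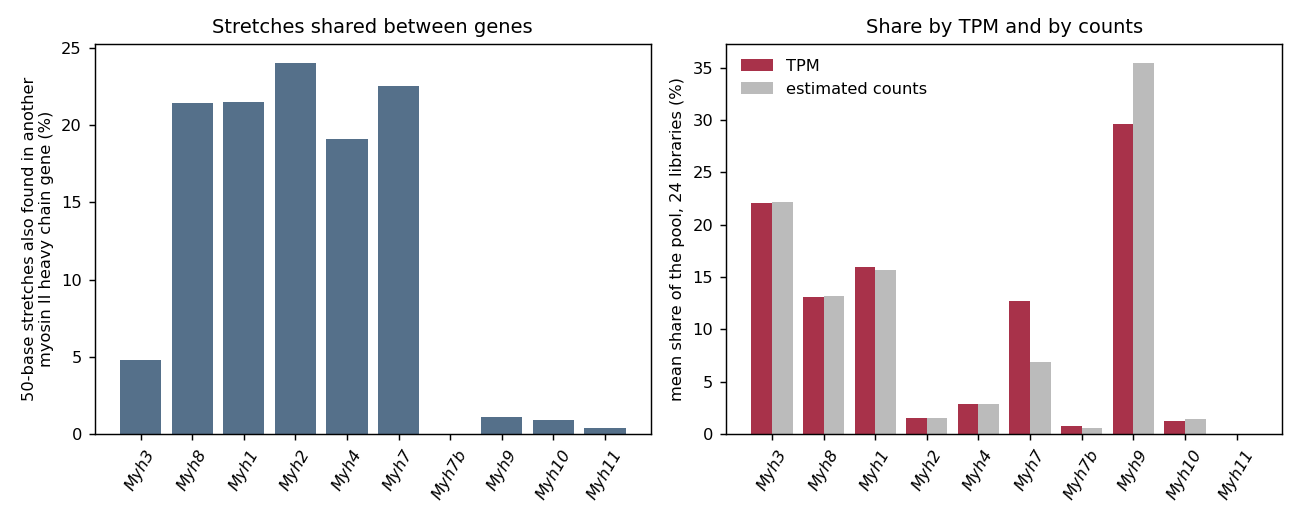
Left, percentage of the 50-base stretches of each member's canonical transcript that also occur in another myosin II heavy chain gene. Right, mean share of the pool over 24 libraries by TPM and by estimated counts, in percent. The fast chains, Myh8 and Myh7 share 19.1% to 24.1% of their stretches and the others at most 4.81%, and the share of Myh7 falls from 12.7% by TPM to 6.92% by counts.

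The promoters of the 5 neighbouring sarcomeric genes are printed because all 5 genes were called as higher at both 1 and 4 Hz. The 150 bases before each start site are given in RefSeq's table (GRCm38.p6, an older build than that of the counts, plus strand), at chr11:67078150-67078299 for Myh3, chr11:67276974-67277123 for Myh8, chr11:67199952-67200101 for Myh1, chr11:67170877-67171026 for Myh2 and chr11:67237662-67237811 for Myh4. Capitals mark every match, on either strand, to TATAAA (the TATA box), CANNTG (the E-box bound by Myod1 and Myog), CATTCC (bound by TEAD factors) or TAAAAATA (a Mef2 motif).
Myh3: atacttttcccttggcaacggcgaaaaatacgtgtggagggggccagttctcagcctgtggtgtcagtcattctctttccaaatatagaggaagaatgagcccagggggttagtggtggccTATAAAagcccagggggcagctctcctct
Myh8: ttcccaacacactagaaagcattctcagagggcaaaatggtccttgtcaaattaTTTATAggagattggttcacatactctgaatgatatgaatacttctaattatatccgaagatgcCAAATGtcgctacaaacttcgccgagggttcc
Myh1: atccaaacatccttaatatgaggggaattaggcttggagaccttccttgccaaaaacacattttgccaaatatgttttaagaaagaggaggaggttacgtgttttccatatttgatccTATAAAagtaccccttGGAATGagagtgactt
Myh2: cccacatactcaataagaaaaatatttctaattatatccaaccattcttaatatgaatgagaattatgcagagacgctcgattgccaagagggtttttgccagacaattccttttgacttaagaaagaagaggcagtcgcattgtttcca
Myh4: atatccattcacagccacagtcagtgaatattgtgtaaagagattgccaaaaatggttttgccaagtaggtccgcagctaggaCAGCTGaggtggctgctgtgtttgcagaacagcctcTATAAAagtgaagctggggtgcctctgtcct
TATAAA began 29 bases before the start of Myh3, 32 before Myh1 and 31 before Myh4, and for Myh8 a match on the reverse strand began 96 bases before the start. Over a stretch before the start longer than the 150 bases printed, TATAAA was found in 12.4% of 32851 promoters, CANNTG in 66.2%, CATTCC in 12.6% and TAAAAATA in 2.45%. These percentages therefore cannot be set directly against the matches printed. These matches describe letters only, and no protein binding was measured.

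Libraries held between 4.09 and 15.2 M estimated counts (M for mega; median 7.48 M), so that between 9181 and 48678 counts per library fell on the pool. Within conditions, all 60 pairs of libraries differed by more than sampling noise. The labels call the cells myoblasts, and the RNA held high levels of fiber genes beside low to moderate levels of myoblast and cell cycle genes. Acta1, skeletal muscle actin, had mean TPM of 3292 to 5384 and Myog, a factor of terminal differentiation, of 320 to 503, while the 6 myoblast and cell cycle markers had means of 17.6 to 28.6 (Cdk1), 9.16 to 16.7 (Myf5), 3.13 to 4.47 (Ccnb1), 2.02 to 4.29 (Top2a), 0.501 to 0.958 (Pax7) and 0.118 to 0.297 TPM (Mki67). Library composition moved with condition: small RNAs without a poly(A) tail took 130 ± 23.0 CPM (counts scaled to library size) in control (SD, n = 6), 29.7 ± 21.1 at 1 Hz, 27.4 ± 12.4 at 4 Hz and 123 ± 86.2 at 10 Hz, and no 1 Hz or 4 Hz library overlapped control. The labels state that samples of low input were ribodepleted without naming them.

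The whole pool was larger in stimulated tissues at 1 and 4 Hz than in control. Its summed TPM ranged from 421 to 639 in control (median 495), from 736 to 1086 at 1 Hz (median 861), 635 to 994 at 4 Hz (median 728), and between 443 and 827 at 10 Hz (median 524). Every 1 Hz library lay above every control library, the 4 Hz libraries overlapped control only at their lower edge, and the 10 Hz libraries began within the control range and reached above it. The pool took 0.215 ± 0.0344% of all counts in control, 0.372 ± 0.0611% at 1 Hz, 0.335 ± 0.0554% at 4 Hz and 0.248 ± 0.0578% at 10 Hz (SD, n = 6). The sum was described and not tested. In bulk RNA, fewer cells of a type and less RNA per cell cannot be told apart.

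In control tissues the most abundant chain was not a muscle chain. Myh9 had 196 TPM, followed by Myh3 with 88.0, Myh1 with 72.9, Myh7 with 64.0, Myh8 with 57.9, Myh4 with 15.5, Myh10 with 8.87, Myh2 with 6.58, Myh7b with 4.10 and Myh11 with 0.0558 TPM (means, n = 6). Myh9 lay above Myh3 in every library comparison, whereas the ranges of Myh3 and Myh1, of Myh1 and Myh7, of Myh7 and Myh8, of Myh10 and Myh2, and of Myh2 and Myh7b overlapped, so the order within those pairs was not resolved. At 1 Hz the order of means was Myh9 (225), Myh3 (197), Myh1 (159), Myh8 (136), Myh7 (123), Myh4 (30.8), Myh2 (14.5), Myh10 (9.35) and Myh7b (6.88 TPM). At 4 Hz the mean of Myh3 (185 TPM) was above that of Myh9 (180 TPM) with overlapping ranges, and Myh8 (109 TPM) again lay above Myh7 (101 TPM) within overlapping ranges. At 10 Hz the leading means were Myh9 (172), Myh3 (146), Myh1 (84.5), Myh8 (67.3) and Myh7 (63.9 TPM), and all neighbours among these 5 overlapped.

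**Figure D2:**
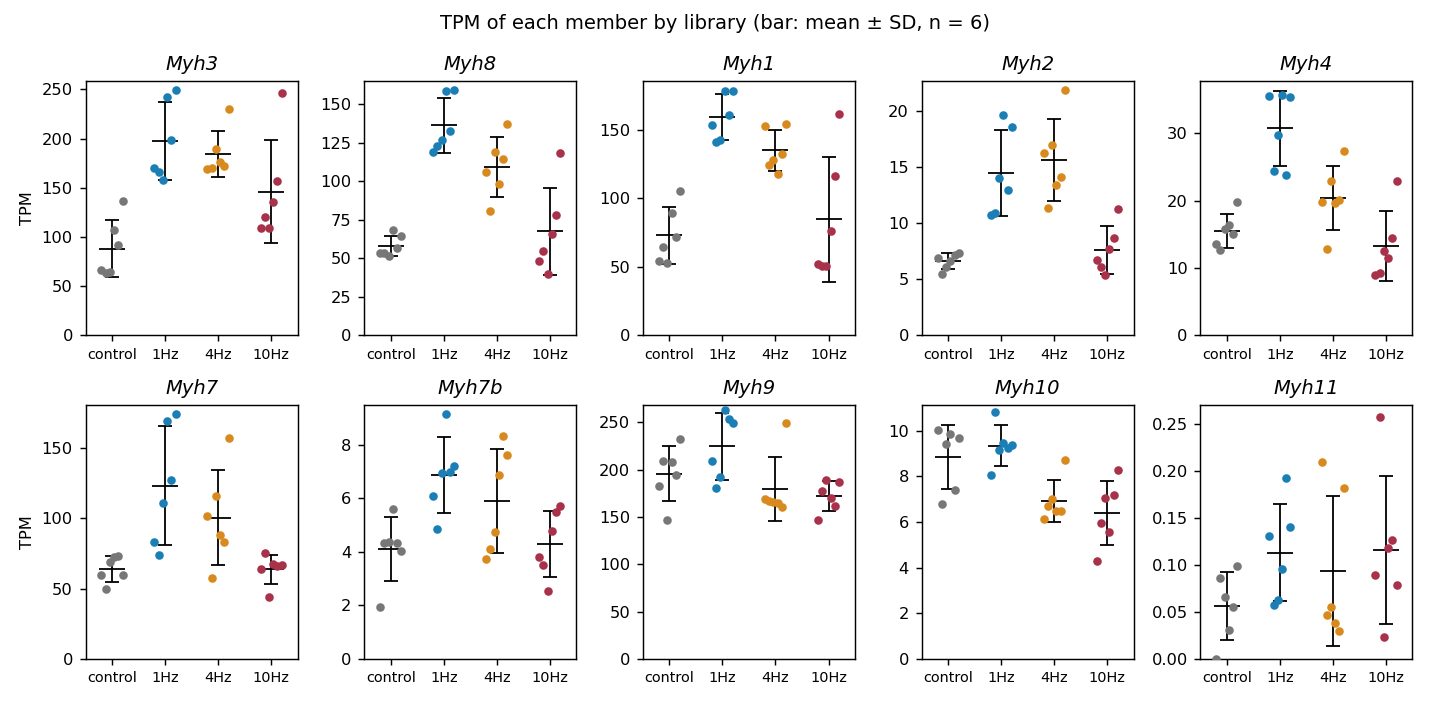
TPM of each member (vertical axis, starting at 0) in the 6 libraries of each condition, with the mean and SD. Myh3, Myh8, Myh1 and Myh2 do not overlap control at 1 or 4 Hz, and at 10 Hz every member overlaps control.

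Level changes were tested with edgeR on the counts of all 13318 genes that passed a filter on low counts, and a call required both a Benjamini-Hochberg adjusted p under 0.05 and a log2 fold change of more than 0.5 in size. The filter was passed by 9 members and not by Myh11, which had 0 to 9 estimated counts per library. At 1 Hz, 7 of 9 members were higher than control and 0 lower, against 9.34% of all tested genes higher and 8.99% lower. At 4 Hz the same 7 were higher and 0 lower, against 10.5% and 9.61% of tested genes. At 10 Hz only Myh3 was higher and 0 were lower, against 1.24% and 0.623%. The 7 called at 1 and 4 Hz were the sarcomeric chains, and Myh9 and Myh10 were not called at any frequency against control. The median log2 fold change of the 9 members was 1.21 at 1 Hz, 1.09 at 4 Hz and 0.21 at 10 Hz, beside -0.01 over all tested genes at each frequency. In TPM, 6 members (Myh3, Myh8, Myh1, Myh2, Myh4 and Myh7) did not overlap control at 1 Hz and 4 (Myh3, Myh8, Myh1 and Myh2) at 4 Hz, where 10.1% and 16.7% of tested genes did not overlap. At 10 Hz all members overlapped control, against 2.61% of tested genes without overlap. The 3 comparisons share the same control libraries.

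Both developmental chains were higher at 1 and 4 Hz, by log2 fold changes of 1.11 to 1.31, and Myh3 alone was also higher at 10 Hz. Myh3, the embryonic chain, ranged from 62.9 to 136 TPM in control (median 78.9), 157 to 249 at 1 Hz (median 185), 169 to 230 at 4 Hz (median 174), and between 109 and 246 at 10 Hz (median 128). All stimulated libraries at 1 and 4 Hz lay above every control, and the 10 Hz libraries overlapped the upper part of the control range. Its log2 fold change was 1.23 at 1 Hz (SE 0.19, edgeR adjusted p = 3.98e-05), 1.26 at 4 Hz (SE 0.19, adjusted p = 1.80e-05) and 0.82 at 10 Hz (SE 0.19, adjusted p = 0.0123). The 10 Hz mean included a library at 246 TPM, the next being at 157, and the call at 10 Hz held when any library was left out but not with limma on log2(TPM + 1) without a filter (log2 fold change 0.72, limma adjusted p = 0.0736). Myh8, the perinatal chain, ranged from 51.6 to 68.0 TPM in control (median 55.1), from 119 to 159 at 1 Hz (median 129), 80.7 to 137 at 4 Hz (median 110), and between 39.5 and 118 at 10 Hz (median 60.2). It did not overlap control at 1 or 4 Hz, and at 10 Hz it lay on both sides of the control range. The log2 fold change of Myh8 was 1.31 at 1 Hz (SE 0.18, edgeR adjusted p = 1.11e-05) and 1.11 at 4 Hz (SE 0.18, adjusted p = 3.48e-05), and at 10 Hz the difference of 0.32 missed the threshold (SE 0.18, adjusted p = 0.330).

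All 3 adult fast chains were higher at 1 and 4 Hz, by log2 fold changes of 0.59 to 1.46, and none was called at 10 Hz. Myh1, the IIx chain of fast glycolytic fibers, ranged from 52.8 to 105 TPM in control (median 67.9), from 141 to 179 at 1 Hz (median 157), 118 to 154 at 4 Hz (median 130), and between 50.7 and 162 at 10 Hz (median 64.0). The 10 Hz libraries were spread from the control level up to the 1 Hz level. For Myh1 the log2 fold change was 1.21 at 1 Hz (SE 0.22, edgeR adjusted p = 0.000164), 1.09 at 4 Hz (SE 0.22, adjusted p = 0.000308) and 0.31 at 10 Hz (SE 0.22, adjusted p = 0.442). Myh2, the IIa chain of fast oxidative fibers, was scarce in control, with 5.46 to 7.36 TPM (median 6.74), and reached 10.7 to 19.6 at 1 Hz (median 13.5), 11.3 to 21.8 at 4 Hz (median 15.2) and 5.35 to 11.2 at 10 Hz (median 7.20). It did not overlap control at 1 or 4 Hz. Its log2 fold change at 4 Hz, 1.46 (SE 0.19, edgeR adjusted p = 2.35e-06), was the highest of any member in any comparison with control, while that at 1 Hz was 1.22 (SE 0.19, adjusted p = 3.47e-05) and the direct difference of 0.23 between these frequencies was not called (SE 0.18, edgeR adjusted p = 0.424). At 10 Hz the value was 0.32 (SE 0.19, edgeR adjusted p = 0.366).

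Myh4, the IIb chain of the fastest fibers, ranged from 12.7 to 19.9 TPM in control (median 15.3), from 23.8 to 35.7 at 1 Hz (median 32.6), 12.8 to 27.4 at 4 Hz (median 19.9), and between 8.88 and 22.8 at 10 Hz (median 11.996). Only at 1 Hz were all libraries above control, and 4 of 6 10 Hz libraries lay below the lowest control. The log2 fold change was 1.05 at 1 Hz (SE 0.19, edgeR adjusted p = 0.000183), 0.59 at 4 Hz (SE 0.19, adjusted p = 0.0161) and -0.14 at 10 Hz (SE 0.19, adjusted p = 0.740). The call at 4 Hz was lost without 4 Hz replicate 6, where the log2 fold change was 0.48.

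The slow chains were called as higher at 1 and 4 Hz and not at 10 Hz. Myh7, the slow chain of type I fibers and of the heart, ranged from 50.1 to 73.1 TPM in control (median 64.4), from 73.6 to 174 at 1 Hz (median 119), 57.7 to 157 at 4 Hz (median 94.9), and between 44.3 and 75.2 at 10 Hz (median 66.3). The lowest 1 Hz library was barely above the highest control, and the 10 Hz libraries covered the control range. Its log2 fold change was 1.21 at 1 Hz (SE 0.20, edgeR adjusted p = 7.55e-05), 1.13 at 4 Hz (SE 0.20, adjusted p = 0.000101) and 0.21 at 10 Hz (SE 0.20, adjusted p = 0.603). Myh7b, an ancient slow-type chain of low abundance in limb muscle, ranged from 1.95 to 5.60 TPM in control, 4.87 to 9.14 at 1 Hz, 3.73 to 8.33 at 4 Hz and 2.52 to 5.70 at 10 Hz. For Myh7b it was 1.01 at 1 Hz (SE 0.20, edgeR adjusted p = 0.000349), 0.68 at 4 Hz (SE 0.20, adjusted p = 0.00761) and 0.05 at 10 Hz (SE 0.20, adjusted p = 0.927).

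The non-muscle chains were not called at any frequency against control. Myh9 ranged from 147 to 233 TPM in control (median 202), from 180 to 263 at 1 Hz (median 229), 161 to 249 at 4 Hz (median 167), and between 147 and 189 at 10 Hz (median 174). Its ranges overlapped in all conditions. The log2 fold change was 0.31 at 1 Hz (SE 0.12, edgeR adjusted p = 0.0454), below the fold threshold, and 0.08 at 4 Hz and -0.07 at 10 Hz (SE 0.12, adjusted p = 0.619 and 0.795). Myh10 ranged from 6.80 to 10.1 TPM in control, from 8.05 to 10.8 at 1 Hz, 6.12 to 8.72 at 4 Hz, and between 4.29 and 8.30 at 10 Hz. For Myh10 the log2 fold change was 0.33 at 1 Hz (SE 0.11, edgeR adjusted p = 0.0205), again under the fold threshold, 0.07 at 4 Hz (SE 0.11, adjusted p = 0.623) and -0.25 at 10 Hz (SE 0.11, adjusted p = 0.192). For both non-muscle chains the mean TPM at 4 Hz lay below control while the fold change from scaled counts lay slightly above 0, so no direction was read at that frequency. Myh11, the smooth muscle chain, had at most 0.257 TPM in any library, so smooth muscle myosin was close to absent from the pool at this depth.

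**Figure D3:**
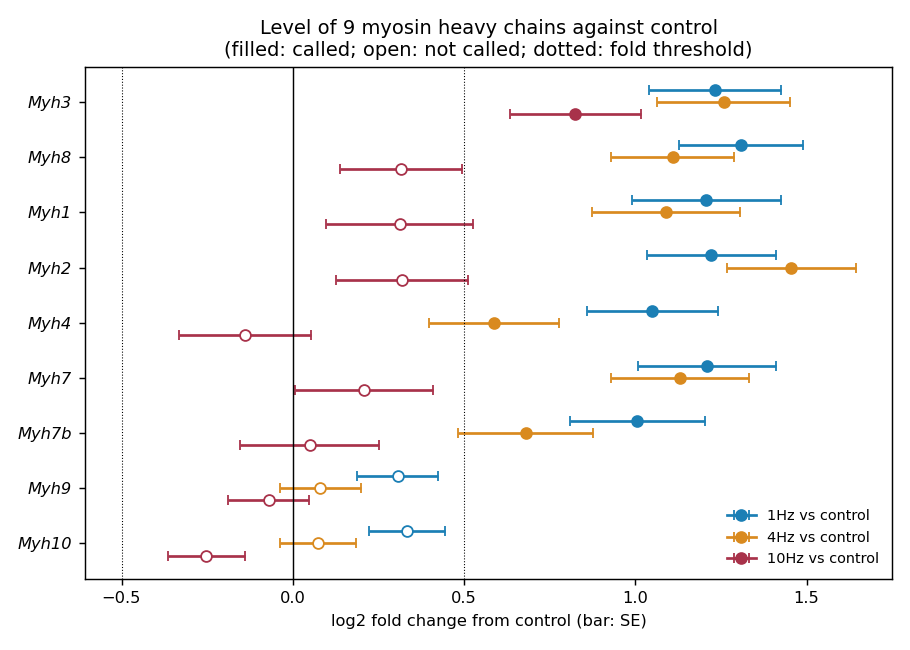
Log2 fold change from control of the 9 tested members at 1, 4 and 10 Hz, with SE bars, filled where called and open where not. The 7 sarcomeric chains are filled at 1 and 4 Hz, at 10 Hz only Myh3 is filled, and Myh9 and Myh10 lie between -0.25 and 0.33.

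With the log2 share of small RNAs entered as a covariate, the fitted log2 fold changes of the 7 sarcomeric chains at 1 Hz ran from 0.49 to 0.92, while 0 of 9 members were called by edgeR and 5 of 9 had an unadjusted p below 0.05. Over all 13318 tested genes, 1 was then called at 1 Hz, 256 at 4 Hz and 203 at 10 Hz. At 4 Hz, Myh2 alone was called with the covariate (log2 fold change 0.98, edgeR adjusted p = 0.0497), and at 10 Hz Myh3 alone (0.73, adjusted p = 0.0264). The small RNA share and the light condition cannot be told apart at 1 and 4 Hz, where it did not overlap control, so the part of library composition in these changes was not tested. At 10 Hz the share varied widely, from 38.2 CPM in replicate 6, which had the largest pool (827 TPM), to 271 in replicate 2 (pool 504 TPM).

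At 1 and 4 Hz the sarcomeric chains made up more of the pool and Myh9 less. In control, Myh9 held 38.3 ± 3.69% of the pool, Myh3 16.8 ± 2.85%, Myh1 14.0 ± 1.67%, Myh7 12.7 ± 2.51%, Myh8 11.4 ± 0.782%, Myh4 3.04 ± 0.366%, Myh10 1.76 ± 0.384%, Myh2 1.30 ± 0.170%, Myh7b 0.802 ± 0.228% and Myh11 0.0108 ± 0.00705% (SD, n = 6). The 7 sarcomeric chains together made up 59.9 ± 3.64% in control, 74.0 ± 1.61% at 1 Hz, 75.4 ± 1.80% at 4 Hz and 67.2 ± 6.70% at 10 Hz. All 1 and 4 Hz libraries, from 71.6% upward, lay above the highest control, 62.8%, and the 10 Hz libraries reached from 57.4% to 76.4%. Among these, replicate 6, with the lowest small RNA share, had the highest sarcomeric share and replicate 3 the lowest. By class, developmental chains went from 28.1 ± 2.35% of the pool in control to 37.0 ± 1.36%, 38.9 ± 1.55% and 36.9 ± 4.02% at 1, 4 and 10 Hz, and adult fast chains from 18.3 ± 1.47% to 22.8 ± 1.59%, 22.7 ± 1.70% and 17.9 ± 4.36%. The slow chains made up 13.5 ± 2.60% in control and 14.1 ± 2.59%, 13.8 ± 2.41% and 12.5 ± 2.76% at 1, 4 and 10 Hz, differences smaller than the SD. By counts, where the length of Myh7 does not enter, they made up 6.79 ± 0.983% in control and 8.21 ± 1.49%, 8.42 ± 1.43% and 6.59 ± 1.04%, so the slow share at 1 and 4 Hz depended on the scale.

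**Figure D4:**
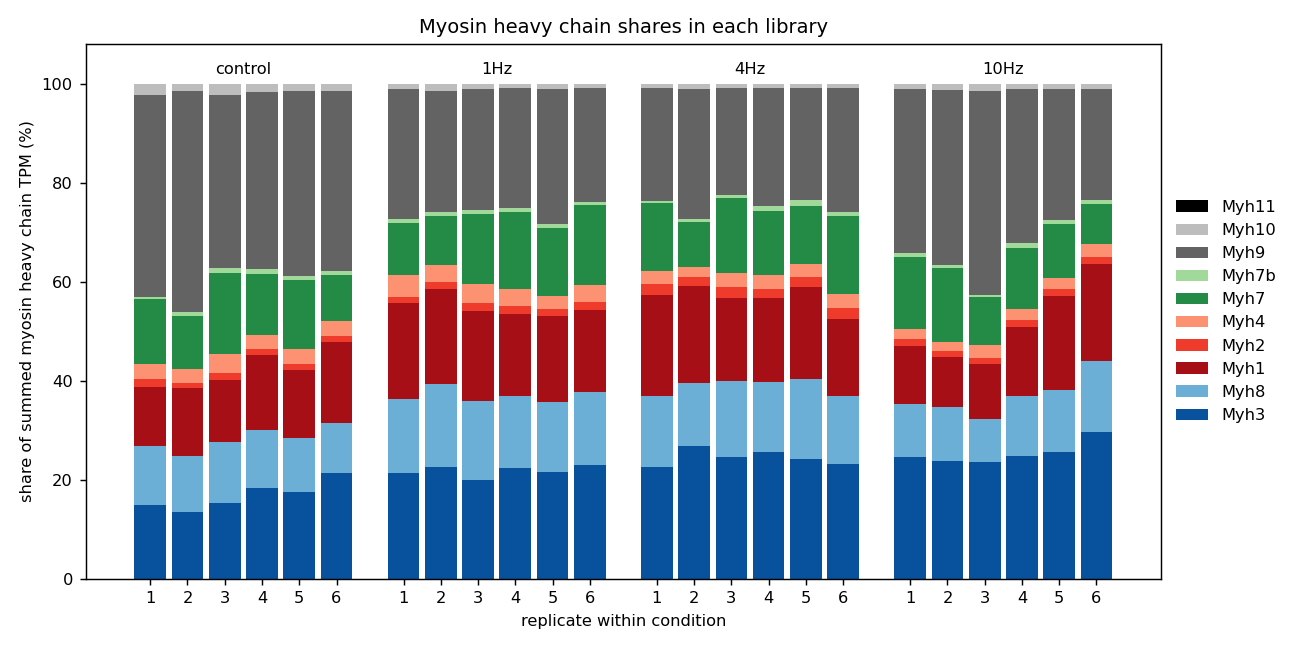
Share of the summed TPM, in percent, held by each member in every library, stacked to 100 and grouped by condition. Myh9 (dark gray) shrinks at 1 and 4 Hz to a mean of 25.0% and 23.7% from 38.3% in control, and the 10 Hz libraries differ from one another.

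Shares were compared by exact permutation of libraries (2-sided, 6 against 6, adjusted over all 13318 genes expressed as a ratio to the pool). The smallest p this design allows is 0.00216. Because the adjustment ran over the ratios of all genes, it was lenient where most of these changed, as at 1 and 4 Hz. At 10 Hz, where 0% were called, the smallest exact p was adjusted to 0.372. Calls of shares, on this or the sarcomeric denominator, therefore cannot be compared between frequencies. At 1 Hz, 6 of 9 members changed their share, 4 up and 2 down, against 0.548% of tested genes up and 78.9% down in their ratio to the pool, whose sum was itself larger at 1 Hz. Myh3 rose by 5.02 percentage points to 21.8 ± 1.12% (exact permutation p = 0.00433, adjusted p = 0.00794), Myh8 by 3.86 to 15.2 ± 0.951% (exact p = 0.00216, adjusted p = 0.00494), Myh1 by 3.85 to 17.8 ± 1.25% (exact p = 0.00433, adjusted p = 0.00794) and Myh2 by 0.290 to 1.59 ± 0.202% (exact p = 0.0325, adjusted p = 0.0417). The call of Myh2 was lost on leaving out any of 6 of the 12 libraries. Myh9 fell by 13.4 points to 25.0 ± 1.58% (exact p = 0.00216, adjusted p = 0.00494) and Myh10 fell by 0.694 to 1.06 ± 0.227% (exact p = 0.00649, adjusted p = 0.0107). Myh4 and Myh7, although called for level, had shares of 3.45 ± 0.629% and 13.3 ± 2.57% at 1 Hz that were not called (exact p = 0.201 and 0.643).

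At 4 Hz the same 6 members were called, 4 up and 2 down, against 1.43% and 69.8% of tested genes. Myh3 rose by 7.71 points to 24.5 ± 1.54%, Myh8 by 3.04 to 14.4 ± 1.19% and Myh2 by 0.750 to 2.05 ± 0.173%, while Myh9 fell by 14.6 to 23.7 ± 1.75% and Myh10 fell by 0.838 to 0.920 ± 0.0775% (exact permutation p = 0.00216, adjusted p = 0.00631 in each). Myh1 rose by 4.01 points to 17.98 ± 1.89% (exact p = 0.00433, adjusted p = 0.00936). At 10 Hz the exact test called 0 members and 0% of all genes, with 3 of 9 members at an unadjusted p below 0.05, and limma on log2 shares called 0 without and 1 with a replicate block (Myh3, limma adjusted p = 0.0261). Those 3 were Myh3, 8.57 points above control at 25.4 ± 2.24% (exact p = 0.00216, adjusted p = 0.372), Myh4, which differed by -0.742 (exact p = 0.00649, adjusted p = 0.372), and Myh10, which differed by -0.610 (exact p = 0.00866, adjusted p = 0.372). The Myh3 share ran from 23.7% to 29.7% at 10 Hz and from 13.4% to 21.3% in control, without overlap, as was so for 0.556% of tested genes. Myh9 at 10 Hz held 31.6 ± 6.55%, from 22.6% to 41.1%, overlapping both control and 1 Hz.

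Because Myh9 is the largest single member, the sarcomeric chains were also expressed as shares of their own sum. On that basis, 0 of 7 chains changed at 1 Hz by the exact test, with 0 at an unadjusted p below 0.05, although 88.6% of tested genes changed their ratio to that sum. Embryonic Myh3 held 27.9 ± 3.70% of sarcomeric TPM in control and 29.5 ± 1.38% at 1 Hz, and Myh8 held 19.0 ± 1.86% and 20.6 ± 1.27%. Myh2, whose pool share was higher at 1 Hz, differed by -0.0289 points on this basis (exact p = 0.842, adjusted p = 0.849). At 4 Hz, 3 of 7 were called, against 85.3% of tested genes. Myh3 rose by 4.62 points to 32.5 ± 2.56% (exact p = 0.0346, adjusted p = 0.0411), Myh2 rose by 0.543 to 2.71 ± 0.201% (exact p = 0.00866, adjusted p = 0.0116) and Myh4 fell by 1.53 to 3.54 ± 0.400% (exact p = 0.00216, adjusted p = 0.00386). At 10 Hz, 0 of 7 and 0% of tested genes were called, with 2 of 7 at an unadjusted p below 0.05. Myh3 then held 37.8 ± 2.08%, from 35.2% to 41.3%, without overlap with the control libraries (24.4% to 34.3%; 0.405% of tested genes did not overlap; difference 9.90 points, exact p = 0.00216, adjusted p = 0.292), and Myh4 3.45 ± 0.677% against 5.08 ± 0.509% in control (exact p = 0.00649, adjusted p = 0.292).

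Ratios between classes are given as a description without a test. The ratio of adult (Myh1, Myh2, Myh4, Myh7) to developmental (Myh3, Myh8) TPM was 1.11 ± 0.0932 in control, 0.979 ± 0.0615 at 1 Hz, 0.921 ± 0.0868 at 4 Hz and 0.802 ± 0.0548 at 10 Hz (SD, n = 6). Control libraries ranged from 0.958 to 1.24 and 10 Hz libraries from 0.721 to 0.875, without overlap, and the 1 and 4 Hz libraries overlapped both. The level of this ratio rests on the TPM scale of Myh7. By counts, developmental chains held 28.1% of the control pool, adult fast chains 17.9% and Myh7 6.19%, so a mean above 1 in control holds for TPM and not for counts. The ratio of Myh3 to Myh8 was 1.495 ± 0.353 in control, 1.44 ± 0.122 at 1 Hz, 1.71 ± 0.219 at 4 Hz and 2.23 ± 0.276 at 10 Hz. The 10 Hz libraries (2.01 to 2.76) lay above every 1 Hz library (at most 1.57) and overlapped the upper control libraries (at most 2.11). The ratio of summed fast (Myh1, Myh2, Myh4) TPM to that of slow Myh7, without Myh7b, was 1.51 ± 0.409 in control. It was 1.79 ± 0.485, 1.81 ± 0.453 and 1.66 ± 0.761 at 1, 4 and 10 Hz, within the spread of libraries. Its level rests on the TPM scale of Myh7.

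**Figure D5:**
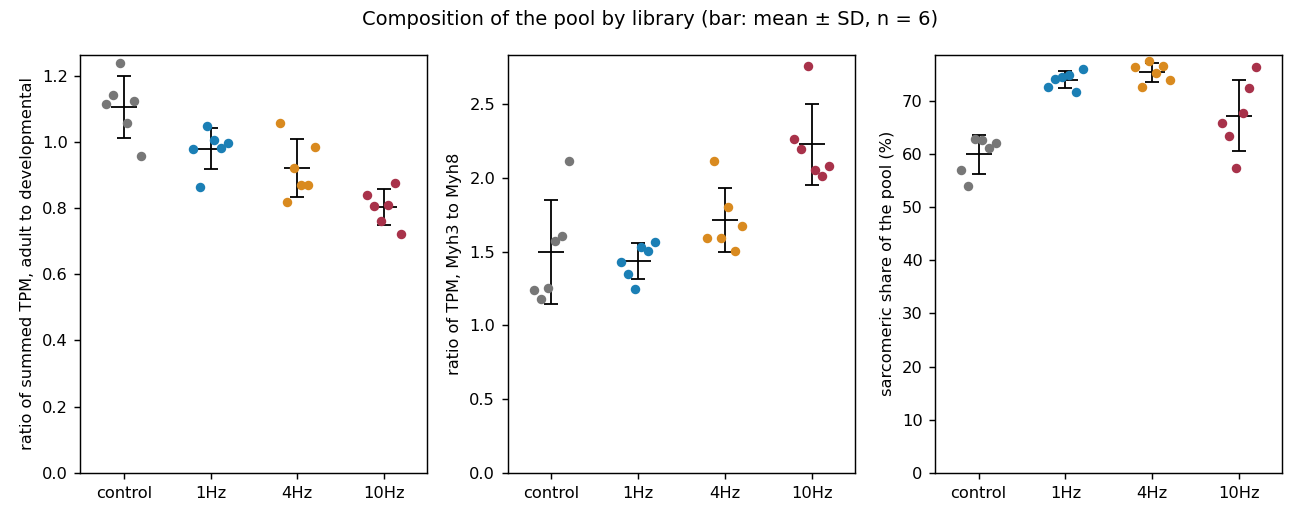
Left, ratio of adult (Myh1, Myh2, Myh4, Myh7) to developmental (Myh3, Myh8) TPM. Middle, ratio of Myh3 to Myh8 TPM. Right, sarcomeric share of the pool in percent. Points are libraries, bars mean and SD, and all axes start at 0. The adult to developmental ratio has means of 1.11, 0.979, 0.921 and 0.802 in control and at 1, 4 and 10 Hz, and the sarcomeric share is highest at 1 and 4 Hz. The level of the adult to developmental ratio rests on the TPM scale of Myh7.

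The frequencies were then compared directly. Between 4 and 1 Hz, edgeR called 0 of 9 members for level, against 3% of tested genes called, with 2 at an unadjusted p below 0.05 and 0 called by DESeq2. Those 2 were Myh4, with a log2 difference of -0.46 (SE 0.19, edgeR adjusted p = 0.103), and Myh10, with -0.26 (SE 0.11, adjusted p = 0.116). Myh4 was called as lower at 4 Hz by limma on log2(TPM + 1), and by edgeR without 4 Hz replicate 6 (log2 difference -0.57, adjusted p = 0.0410). For shares the exact test called 0 members and 0% of genes, with 3 of 9 members at an unadjusted p below 0.05, and limma called 0. Myh3 was 2.69 points and Myh2 0.460 points higher at 4 Hz (exact p = 0.00433, adjusted p = 0.187 in each), and Myh4 differed by -0.772 (exact p = 0.0130, adjusted p = 0.229).

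At 10 Hz, 7 of 9 members were lower than at 1 Hz and 0 higher, against 8.49% of tested genes lower and 9.45% higher. Myh4 had a log2 difference of -1.19 (SE 0.19, edgeR adjusted p = 3.93e-05), Myh7 -1.003 (SE 0.20, adjusted p = 0.000370), Myh8 -0.99 (SE 0.18, adjusted p = 0.000137), Myh7b -0.96 (SE 0.19, adjusted p = 0.000388), Myh2 -0.90 (SE 0.18, adjusted p = 0.000435), Myh1 -0.90 (SE 0.22, adjusted p = 0.00204) and Myh10 -0.59 (SE 0.11, adjusted p = 0.000208). Only Myh8 and Myh4 did not overlap in TPM, as held for 10.5% of tested genes. Myh3 was not called (log2 difference -0.41, SE 0.19, edgeR adjusted p = 0.0929), though without 10 Hz replicate 6 it was (-0.61), and Myh9 passed the p but not the fold threshold (-0.38, SE 0.12, adjusted p = 0.0147). Of the shares, 3 of 9 differed, 1 up and 2 down, against 56.2% and 0.541% of tested genes. Myh3 was 3.55 points higher at 10 Hz and Myh8 3.66 lower (a difference of -3.66; exact p = 0.00216, adjusted p = 0.0217 in each), and Myh4 differed by -1.15 (exact p = 0.00649, adjusted p = 0.0235). These calls fell to 0 without 1 Hz replicate 4 or 1 Hz replicate 6 and rose to 5 without 10 Hz replicate 5 or 10 Hz replicate 6. As shares of the sarcomeric chains alone, the same 3 were called, against 63.1% of tested genes, with differences of 8.34 points for Myh3 (exact p = 0.00216, adjusted p = 0.0251), -3.48 for Myh8 (exact p = 0.00216, adjusted p = 0.0251) and -1.22 for Myh4 (exact p = 0.0238, adjusted p = 0.0410).

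Between 10 and 4 Hz, 6 of 9 members were lower at 10 Hz and 0 higher, against 5.64% and 5.32% of tested genes. Myh2 differed most, by -1.14 on the log2 scale (SE 0.18, edgeR adjusted p = 0.000184), and was the only member without overlap in TPM, as held for 5.36% of tested genes. Myh7 differed by -0.92 (SE 0.20, edgeR adjusted p = 0.00200), Myh8 by -0.79 (SE 0.18, adjusted p = 0.00264), Myh1 by -0.78 (SE 0.21, adjusted p = 0.0107), Myh4 by -0.73 (SE 0.19, adjusted p = 0.00746) and Myh7b by -0.63 (SE 0.19, adjusted p = 0.0185). The call of Myh7b was lost without 4 Hz replicate 6 (-0.49, edgeR adjusted p = 0.0645) or 10 Hz replicate 3 (-0.54, adjusted p = 0.0553). Myh3 was not called (-0.43, SE 0.19, edgeR adjusted p = 0.0994) except without 10 Hz replicate 6 (-0.64), nor was Myh10 (-0.33, SE 0.11, adjusted p = 0.0321) or Myh9 (-0.15, SE 0.12, adjusted p = 0.376). Of the shares, 2 of 9 were called, 1 up and 1 down, against 26.4% and 0.548% of tested genes: Myh2 with a difference of -0.704 points (exact p = 0.00216, adjusted p = 0.0461) and Myh10 with 0.228 points (exact p = 0.0130, adjusted p = 0.0482). Both adjusted p values lay just under the threshold, and 0 members were called without 10 Hz replicate 1, 2, 3 or 4 or without any of the 4 Hz replicates, 1 without 10 Hz replicate 5 and 5 without 10 Hz replicate 6. Within the sarcomeric chains, Myh3 was 5.28 points higher (exact p = 0.00649, adjusted p = 0.0392), Myh8 differed by -1.99 (exact p = 0.0216, adjusted p = 0.0465) and Myh2 by -0.709 (exact p = 0.00216, adjusted p = 0.0392), where 52.5% of tested genes were called. When the small RNA content entered the fit, edgeR called 1 member for level between 10 and 1 Hz (Myh4, -0.91, adjusted p = 0.0470) and 0 of 9 between 10 and 4 Hz, with 4 and 2 at an unadjusted p below 0.05. Of all 13318 tested genes, that fit called 243 and 0, so its count between 10 and 4 Hz does not set the members apart.

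Most tested genes for the other parts of the thick filament were also higher at 1 and 4 Hz. Of 16 tested genes for myosin light chains, myosin-binding and M-band proteins, titin and factors that fold or modify myosin, 13 were higher and 1 lower at 1 Hz, 12 higher and 1 lower at 4 Hz, and 2 higher and 0 lower at 10 Hz, against 9.34% and 8.99%, 10.5% and 9.61%, and 1.24% and 0.623% of all tested genes, with medians of 0.69, 0.83 and 0.24 on the log2 scale. With the small RNA content in the fit, 1 of all 13318 tested genes, in this list or outside it, was called at 1 Hz. Mybph, a myosin-binding protein, had 457 ± 77.2 TPM in control, 1044 ± 107 at 1 Hz, 1017 ± 151 at 4 Hz and 691 ± 264 at 10 Hz (SD, n = 6), and log2 fold changes of 1.26, 1.35 and 0.70 (SE 0.18 each, edgeR adjusted p = 1.27e-05, 2.81e-06 and 0.0194). Myl2, the regulatory light chain of slow fibers, had 32.7 ± 2.87, 56.9 ± 14.5, 80.3 ± 25.2 and 36.1 ± 11.5 TPM, and log2 fold changes of 0.92 (SE 0.24, edgeR adjusted p = 0.00408) at 1 Hz and 1.53 (SE 0.23, adjusted p = 1.68e-05) at 4 Hz. The lower gene was the chaperone Hsp90aa1 (-0.76 at 1 Hz and -0.82 at 4 Hz, edgeR adjusted p = 0.00149 and 0.000557), named after its values were seen. Titin (Ttn), the molecular ruler of the sarcomere, was not called (0.06, 0.11 and 0.19 at 1, 4 and 10 Hz), nor was the ubiquitin ligase Trim63 (0.12, 0.26 and 0.05), and both were named after their values were seen.

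Of 9 tested genes for light chains, kinases and phosphatase of non-muscle myosin and the GTPase Rhoa, 1 was higher and 0 lower at 1 Hz, 1 higher and 1 lower at 4 Hz, and none was called by edgeR at 10 Hz, beside 9.34% of all tested genes higher at 1 Hz and 10.5% at 4 Hz, with medians of 0.01, -0.05 and -0.02 on the log2 scale. Mylk, the myosin light chain kinase, was the gene that rose (1.31 at 1 Hz, SE 0.21, edgeR adjusted p = 6.14e-05, and 1.14 at 4 Hz, SE 0.21, adjusted p = 0.000167), from a low 0.890 ± 0.309 TPM in control to 1.75 ± 0.363 and 2.14 ± 1.00 TPM. Rock1, a kinase that activates myosin II, fell at 4 Hz (-0.52, SE 0.15, edgeR adjusted p = 0.00854).

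Markers of other muscle states were compared in the same way. Of all tested genes, 9.34%, 10.5% and 1.24% were higher at 1, 4 and 10 Hz and 8.99%, 9.61% and 0.623% lower. With the small RNA content in the fit, 1 of all 13318 tested genes was called at 1 Hz. Of 8 markers of differentiated fibers, 5, 6 and 1 were higher at 1, 4 and 10 Hz and 0 lower, and their summed TPM was 7300 to 9042 in control, 10286 to 13508 at 1 Hz, 9925 to 14537 at 4 Hz and 6888 to 10660 at 10 Hz. Of 6 markers of undifferentiated or dividing myoblasts, 1 was higher at 1 Hz, 3 were higher and 1 lower at 4 Hz, and 0 were called at 10 Hz, while their summed TPM was 39.8 to 62.2 in control, 37.7 to 49.1, 26.6 to 42.7 and 43.1 to 51.8. Of 4 tested smooth muscle markers, 2 were higher at 1 Hz, 2 higher and 1 lower at 4 Hz, and 1 lower at 10 Hz, and their summed TPM was 230 to 393 in control, 434 to 629, 426 to 638 and 230 to 488. Those higher were Acta2 (172, 364 and 372 TPM in control, at 1 Hz and at 4 Hz; log2 fold changes 1.09 and 1.25) and Tagln (27.2, 60.6 and 73.9 TPM; 1.03 and 1.35), and the gene that was lower, named after its values were seen, was Smtn (94.7 TPM in control, 61.7 at 4 Hz and 60.9 at 10 Hz; -0.53 and -0.60). Myocd, the factor that defines smooth muscle, was at 0 in 6 of 6 control libraries and at most 0.604 TPM elsewhere. Of 3 tested cardiac markers, 2 were higher and 1 lower at 1 Hz, 2 higher at 4 Hz and 0 at 10 Hz, with sums of 1017 to 1351, 1619 to 2025, 1739 to 2147 and 1231 to 1974 TPM, and Myl7 and Nppa were at 0 in all 24 libraries. Of 3 tested fibroblast markers, 0 were called at 1 and 10 Hz and 1 was lower at 4 Hz, with sums of 28.5 to 65.2, 31.7 to 48.4, 27.2 to 34.3 and 28.2 to 40.5 TPM and Lum at most 0.136 TPM, and no adipocyte marker passed the count filter. The part of any shift in cell makeup in the myosin changes was not tested.

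Genes most alike in pattern were listed for the leading sarcomeric and non-muscle members. Over 24 libraries, among 7673 genes with a mean of at least 10 TPM, the highest Pearson correlations of log2 CPM with Myh3 were those of Acta2 (0.963), Myod1 (0.943), Tnnt2 (0.943), Trio (0.943) and Fgd3 (0.942). Acta2 is smooth muscle actin, which developing skeletal muscle also makes, Myod1 is a master factor of muscle identity, and Tnnt2 is the cardiac and embryonic troponin T. With Myh9 they were those of Ptprs (0.941), Tln1 (0.929), Lrp1 (0.928), Septin9 (0.915) and Plxna1 (0.912), where Tln1 is talin, which ties integrins to actin. After each condition was centered on its mean, r was 0.848 to 0.920 for the Myh3 list and 0.898 to 0.966 for the Myh9 list. These are descriptions over libraries that share conditions, depth and RNA composition.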

How the data were processed

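RNA of 24 muscle tissues was sequenced in paired reads of 50 bases, after poly(A) selection or, for low-input samples, ribodepletion. The authors ran nf-core/rnaseq with salmon on GRCm39 with Ensembl annotation, and deposited, per library, estimated counts (not normalized) and TPM (scaled for transcript length and depth). The annotation release and the use of strand in counting are not given in the sources used here. Which samples were ribodepleted is not stated in the labels.

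Samples were grouped by their titles. Members and gene lists were chosen with earlier results of these data known. Estimated counts, not whole for 6.62% to 10.6% of genes per library, were rounded and tested with edgeR 4.0.16 (quasi-likelihood, TMM scaling, filterByExpr) in 1 fit of all 24 libraries, with limma 3.58.1 and DESeq2 1.42.0 as alternatives. SE was the absolute log2 fold change over the square root of F. Shares were tested by 2-sided exact permutation computed with numpy 2.4.6, adjusted over all 13318 genes tested. The study's own criteria for calls used DESeq2. Named were all members, the 5 genes most like Myh3 and Myh9 each, and defining markers at or near 0. The called genes with the 2 largest changes from control were named from the thick filament, non-muscle myosin, regulator, smooth muscle and other myosin lists. From the fiber, myoblast, cardiac and fibroblast lists, no gene was named for its call. Other alternatives were other scaling, filters, pseudocounts and denominators, the small RNA share as covariate, a replicate block and leaving out each library. Replicate numbers were not treated as pairs. The mean correlation of residuals between same-numbered libraries was -0.00348 to 0.0604 per number, and single correlations ran from -0.194 to 0.231. Sequences came from GENCODE M39 transcripts and RefSeq's promoter table. Genes of the regulator list that were lower are not reported here.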

Additional observations from a re-analysis of the deposited data

Results flagged for a closer look

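Of 80 groups of 6 libraries (each member's TPM and pool share in each condition), 8 held a library whose gap to the nearest other was a larger part of the range than Dixon's critical value, where chance flags about 1 in 20 groups. Replicate 6 at 4 Hz gave 3 of these, with Myh3 at 230 TPM (next 189), Myh9 at 249.47 TPM (next 169.53) and Myh10 at 8.72 TPM (next 7.03). Replicate 6 at 10 Hz gave another 2, with Myh3 at 246 TPM (next 157) and at 29.7% of the pool (next 25.5%), and this library also had the lowest small RNA content of its condition, 38.2 CPM. The other 3 were Myh4 at 2.01% of the pool in 4 Hz replicate 2 (next 2.66%), Myh7 at 44.3 TPM in 10 Hz replicate 3 (next 63.8), and Myh11 at 0.0511% of the pool in 10 Hz replicate 2 (next 0.0217%), a gene with at most 9 estimated counts per library. What set these libraries apart was not tested.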

How the results depend on the processing

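Members called for level at 1, 4 and 10 Hz against control numbered 7, 7 and 1, and 0, 7 and 6 for 4 against 1 Hz, 10 against 1 Hz and 10 against 4 Hz. With the small RNA share as covariate these became 0, 1, 1, 0, 1 and 0, where 1, 256, 203, 410, 243 and 0 of all 13318 tested genes were called. With limma on log2(TPM + 1) without a filter, 4 were called at 4 Hz, 0 at 10 Hz and 3 for 10 against 4 Hz, and with the filter, limma on log2(TPM + 1) or log2(TPM + 0.1) called 5 at 4 Hz, 1 at 10 Hz, 4 for 10 against 4 Hz and 1 for 4 against 1 Hz. Total count scaling gave 6 at 4 Hz. Leaving out each replicate gave 7 to 7, 6 to 7, 1 to 1, 0 to 1, 7 to 8 and 5 to 7. Pool shares gave 6, 6, 0, 0, 3 and 2 calls, and 5 to 6, 6 to 6, 0 to 0, 0 to 0, 0 to 5 and 0 to 5 when each replicate was left out. With the 7 sarcomeric members as denominator, 0 were called at 1 Hz and 3 at 4 Hz, and the difference for Myh2 at 1 Hz was -0.0289 points, of the opposite sign. Limma on log2 shares without a block called 1 for 10 against 4 Hz.

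Replicate numbers were taken only as names, and for 5 of 24 libraries the best match in another condition had the same number. The replicate block left the level counts at 7, 7, 1, 0, 7 and 6, and for shares it gave 1 call at 10 Hz (Myh3, limma adjusted p = 0.0261) and 4 for 10 against 4 Hz. Where no value above shows a cause, the cause was not tested. Over all settings, 1242 of the member level values kept their side of the threshold, 45 lost and 9 gained a call. For shares, 841 kept their side, 46 lost and 18 gained a call and 1 reversed. A change of sign counted as reversed only where a call was made, so uncalled values among those kept could change sign. Depth limits Myh11, and reads shared among Myh1, Myh2, Myh4 and Myh8 limit their split.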

Other observations

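Of 13 tested regulators of muscle myosin genes, edgeR called 5 as higher at 1 Hz, 5 at 4 Hz and 1 at 10 Hz. Among all tested genes, 9.34%, 10.5% and 1.24% were higher. With the small RNA content in the fit, 1 of all 13318 tested genes was called at 1 Hz. Nfatc1, a transcription factor that calcium signals bring to the nucleus, had mean TPM of 5.02 in control, 15.7 at 1 Hz, 13.8 at 4 Hz and 6.47 at 10 Hz, with log2 fold changes of 1.75 at 1 Hz (edgeR adjusted p = 5.57e-06) and 1.68 at 4 Hz (adjusted p = 3.91e-06). Myod1 had 30.8, 66.0, 76.5 and 49.2 TPM, with log2 fold changes of 1.17 (edgeR adjusted p = 0.000456) and 1.51 (adjusted p = 2.15e-05) at 1 and 4 Hz and 0.77 (adjusted p = 0.0548) at 10 Hz. The gene higher at 10 Hz was Myog (0.62, edgeR adjusted p = 0.0142), named after its values were seen.

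Of the other myosin II heavy chains, cardiac Myh6 had mean TPM of 32.4 in control, 55.8 at 1 Hz, 49.6 at 4 Hz and 33.2 at 10 Hz. It was higher at 1 Hz (log2 fold change 1.005, edgeR adjusted p = 0.000447) and 4 Hz (0.85, adjusted p = 0.00149), with reads it shares with Myh7. Its implied length was only 0.153 relative to Myh9, so its TPM stood high for its counts. In control, Myh6 had 105 to 199 counts per library, and Myh10 had 169 to 323 at a mean of 8.87 TPM. Non-muscle Myh14 had 1.21, 1.47, 1.25 and 0.924 TPM and was higher at 1 Hz (0.60, edgeR adjusted p = 0.0321). Between the clustered genes on chromosome 11, the transcript Myhas reached at most 1.31 TPM in any library. Looked up with it, 2310065F04Rik had 0.406 to 1.64 TPM in control and 1.90 to 3.36 at 4 Hz, and 9430073C21Rik 0.661 to 1.42 and 1.59 to 2.24. Neither overlapped control at 4 Hz, as held for 16.7% of tested genes, and both overlapped it at 1 and 10 Hz. In control each had at most 11 counts per library.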
